A study of Mus musculus with 13 samples.

Results

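Described here are Zic1, Zic2, Zic4 and Zic5, the rows of the count table with these symbols. They are 4 of its 53653 genes, and all 4 passed the low-count filter that left 22265 genes for testing. RNA was sequenced from mouse medulloblastomas, here cerebellar tumours of granule cell precursors. Cells of the primary tumours were sorted for GFP, and the labels do not say plainly whether the metastasis pellets were. Every mouse overexpressed SmoM2, an active form of Smoothened that turns on the Sonic Hedgehog pathway. Control primary tumours (5 libraries, replicates 3 to 7) carried SmoM2 alone and came from cerebella of mice aged 6 to 16 weeks. The KO primary tumours (4 libraries, replicates 3, 4, 6 and 7) and KO metastases (4 libraries with the same numbers) also had Kmt2d knocked out (SmoM2-Kmt2dCf/Cf), from mice aged 5 to 8 weeks. Kmt2d codes for a methyltransferase of histone H3 lysine 4 that works at enhancers. The metastases were taken from the spinal cord. No source used here gives the age of a single library or the driver of SmoM2 and of the deletion, so age and genotype cannot be told apart. Nothing in the labels says which libraries are separate mice, and the p-values measure the spread between libraries, which may be technical.

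The Zic genes code for transcription factors with a block of C2H2 zinc fingers that resembles the fingers of the GLI proteins, the effectors of Hedgehog signalling. They are used in the dorsal neural tube and in the cerebellum, where granule cell precursors and the granule neurons that come from them express them. Zic1 and Zic4 are needed for a cerebellum of normal size and folding, Zic2 is needed for forebrain formation, and Zic5 takes part in neural crest and neural tube development. The genes lie in the genome as divergent pairs.

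On GRCm38 (GENCODE M21), Zic1 occupies chr9:91358058-91365810 on the minus strand and Zic4 chr9:91362413-91389348 on the plus strand, both protein coding. Zic5 occupies chr14:122456795-122465677 on the minus strand and Zic2 chr14:122475435-122479852 on the plus strand. The annotated Zic4 gene starts inside Zic1, and 60 exon bases (1.05% of the Zic1 exons) lie on opposite strands of the same stretch. The strand setting of the counting is not given, and reads from that stretch cannot be told apart. Zic2 and Zic5 share no exon base. RefSeq places the starts of Zic1 and Zic4 3204 bases apart and pointing away from each other.

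Promoters are shown for Zic1, Zic4 and Zic5, because the genes of a pair start back to back and their levels are compared below. RefSeq (GRCm38.p6) has an entry for these 3 of the 4 genes. The 250 bases before each start are printed 5′ to 3′ on the strand of the gene, with CCAAT and GGGCGG matches on either strand in capitals. They are chr9:91365769-91366018 (minus), chr9:91368722-91368971 (plus) and chr14:122465659-122465908 (minus).
Zic1: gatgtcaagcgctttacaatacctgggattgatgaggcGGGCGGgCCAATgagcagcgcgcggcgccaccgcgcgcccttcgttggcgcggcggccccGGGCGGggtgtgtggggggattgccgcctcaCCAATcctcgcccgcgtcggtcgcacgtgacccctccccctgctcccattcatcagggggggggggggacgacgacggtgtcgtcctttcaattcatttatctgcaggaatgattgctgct
Zic4: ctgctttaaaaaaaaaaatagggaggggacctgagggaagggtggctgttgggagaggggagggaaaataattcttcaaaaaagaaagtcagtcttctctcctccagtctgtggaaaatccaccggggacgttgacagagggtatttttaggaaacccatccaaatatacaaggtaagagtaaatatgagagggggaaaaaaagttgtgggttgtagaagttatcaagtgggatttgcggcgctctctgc
Zic5: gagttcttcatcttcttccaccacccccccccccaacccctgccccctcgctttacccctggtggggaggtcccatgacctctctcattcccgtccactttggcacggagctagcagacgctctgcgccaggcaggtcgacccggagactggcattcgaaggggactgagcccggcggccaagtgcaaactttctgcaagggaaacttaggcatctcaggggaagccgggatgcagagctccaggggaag

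The Zic1 window held 2 matches to CCAAT and 2 to GGGCGG, which did not overlap, and 27 CG dinucleotides. The Zic4 window had 4 CG dinucleotides and the Zic5 window 11, beside a median of 6 over 32851 promoter windows of this length. Neither CCAAT nor GGGCGG was in the Zic4 or Zic5 window. Of all windows 33.8% held CCAAT and 32.7% GGGCGG. No window of the 3 held TATAAA (12.4% of all windows), the GLI letters GACCACCCA (0.225%) or the ZIC core letters CAGCAGG (8.44%). Each held 1 match to CANNTG, the E-box letters that factors such as ATOH1 can bind, as did 66.2% of all windows. All letters were searched on both strands, and a match is not a measured site.

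Library totals ran from 23.5 to 41.4 M counts. Olfactory and vomeronasal receptor genes, which belong to sensory neurons, took 332 to 1679 CPM (the count scaled to the size of the library) in control primary 3, KO primary 7, KO metastasis 6 and KO metastasis 7, and 81.3 CPM or less in the other 9 libraries. Mitochondrial genes took 2.06% of the counts of KO metastasis 3 and at most 0.876% elsewhere. Xist was above 100 CPM in control primary 5, 6 and 7 and at most 1.02 CPM in all other libraries. Kmt2d counts cover the whole gene and do not check the genotype (78.1 to 175.0 CPM in control primary, 91.7 to 168 in KO primary and 104.7 to 131 in KO metastasis libraries). Atoh1, which defines granule cell precursors, was at 309 to 425 CPM in control primary, 590 to 787 in KO primary and 371 to 861 in KO metastasis libraries. Oligodendrocyte markers (all 10 in the table) summed to 151 to 425 CPM in control primary, 76.1 to 110 in KO primary and 182 to 1983 in KO metastasis libraries. In the same order, 12 meningeal fibroblast markers summed to 217 to 471, 187 to 381 and 74.5 to 191 CPM and 16 Hox genes to 0 to 3.16, 3.60 to 8.95 and 12.5 to 90.0 CPM. The meningeal sums were mostly Pdgfra (47.1 to 388 CPM), Aldh1a2 and Col3a1. Dcn was at 1.75 CPM or below and Lum at 0.456 CPM or below in all 13 libraries. The sum of 12 markers of dorsal spinal cord neurons (23.4 to 49.2, 61.9 to 133 and 60.6 to 97.4 CPM) was mostly Tlx3 in the knockout libraries (51.7 to 125 CPM in KO primary, 13.8 to 36.1 in control primary), and Lbx1, a defining marker, was at 0.352 CPM or below in all 13 libraries. The part of these cells in the Zic levels was not tested. In such bulk libraries fewer cells of a type and less RNA per cell cannot be told apart.

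All 4 Zic genes were well above the detection limit in every library. The lowest count was 569, for Zic2 in control primary 3, and the highest 14740, for Zic4 in control primary 7. Per kilobase of exon, the level over 13 libraries was 52.6 ± 8.45 CPM per kb for Zic5, 40.2 ± 8.87 for Zic1, 29.2 ± 4.32 for Zic4 and 10.7 ± 2.37 for Zic2 (mean ± SD). Zic5 thus stood 1013th of 14834 protein-coding genes of known length by this level, Zic1 1457th, Zic4 2084th and Zic2 4952nd. Zic5 (35.9 to 68.3 CPM per kb) and Zic1 (34.1 to 64.0) overlapped, and so did Zic1 and Zic4 (23.3 to 38.4). Zic2 (7.15 to 14.1 CPM per kb) lay below every value of the other genes. The place of Zic4 depends on its length. Its 12 annotated transcripts cover 10335 exon bases while the longest holds 3891, and with that transcript its level was 77.6 ± 11.5 CPM per kb, the highest of the 4 genes.

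**Figure D1:**
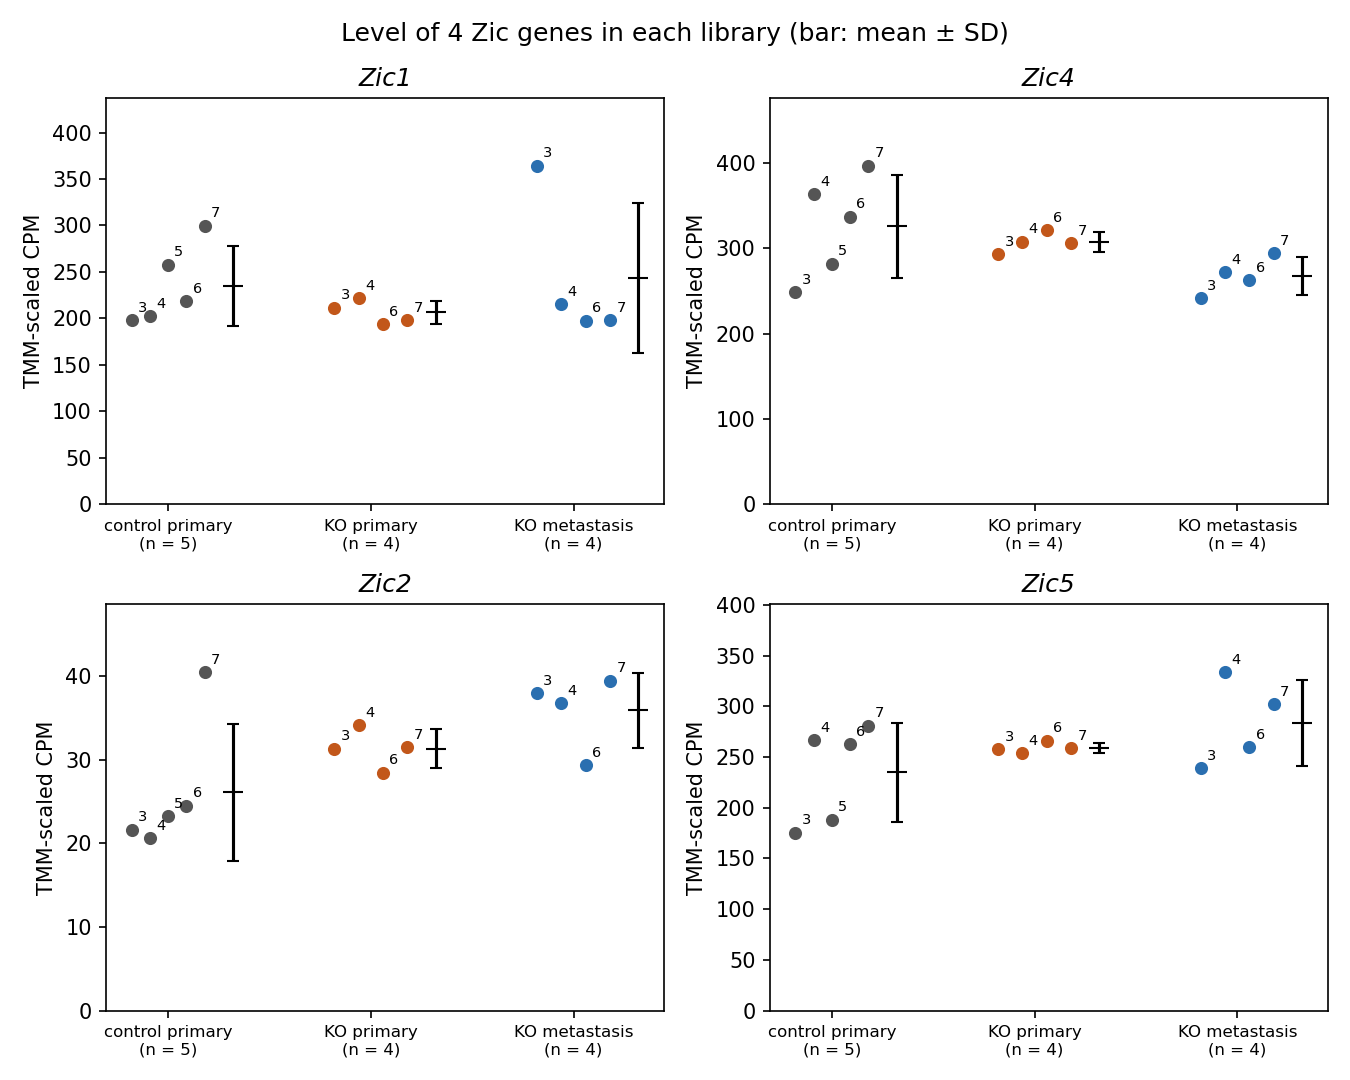
Level of Zic1, Zic4, Zic2 and Zic5 in TMM-scaled CPM (vertical axes, from 0) in each library of the 3 groups, with replicate numbers beside the points and the mean ± SD beside each group. Zic1 in KO metastasis 3 (364 CPM) and Zic2 in control primary 7 (40.5 CPM) stand apart from the rest of their groups, and the 4 KO primary libraries lie close together for every gene.

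The first comparison asks what loss of Kmt2d does to primary tumours. None of the 4 Zic genes was called as changed between control and KO primary tumours. At an edgeR adjusted p below 0.05 the test called 653 of 22265 genes, or 2.93%, and none of these 4 (smallest adjusted p 0.670, for Zic2), nor was any below 0.05 before adjustment. DESeq2 (smallest adjusted p 0.567) and limma voom (0.303) called none of them either. The groups overlapped for each of the 4, while 7.42% of all genes had groups that did not overlap. The 95% confidence intervals of the fold changes ran from 0.662 to 1.16 for Zic1, 0.771 to 1.15 for Zic4, 0.904 to 1.59 for Zic2 and 0.874 to 1.39 for Zic5. A change of 2-fold lay outside all 4 intervals.

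The second comparison asks how metastases differ from primary tumours that share the knockout. No Zic gene was called here either, and nearly no other gene was, at 4 against 4 libraries. Genes not called can still differ. The 10 oligodendrocyte markers had a median log2 change of 4.24 here, with 1 of them called. The 1 gene called (0.00449% of 22265) was Mbp, a myelin gene of oligodendrocytes, at 245 against 44.2 CPM. No Zic gene was below an unadjusted p of 0.05, with edgeR, DESeq2 or limma voom. All 4 had overlapping groups, against 1.72% of all genes without overlap. The 95% intervals of the fold change were 0.878 to 1.59 for Zic1, 0.705 to 1.08 for Zic4, 0.849 to 1.54 for Zic2 and 0.858 to 1.40 for Zic5.

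The third comparison joins genotype and site, and shares its libraries with the other two. It called 685 genes (3.08%), again none of these 4. Groups did not overlap for 6.82% of all genes and overlapped for all 4 Zic genes. Zic2 had an unadjusted p of 0.0304 and an edgeR adjusted p of 0.275. Zic4 had an unadjusted p of 0.0559 and an adjusted p of 0.373. DESeq2 and limma voom had both genes below 0.05 before adjustment and neither after it (smallest adjusted p 0.118 and 0.0514). The 95% interval of the fold change was 1.04 to 1.82 for Zic2, 0.672 to 1.01 for Zic4, 0.782 to 1.37 for Zic1 and 0.958 to 1.52 for Zic5.

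**Figure D2:**
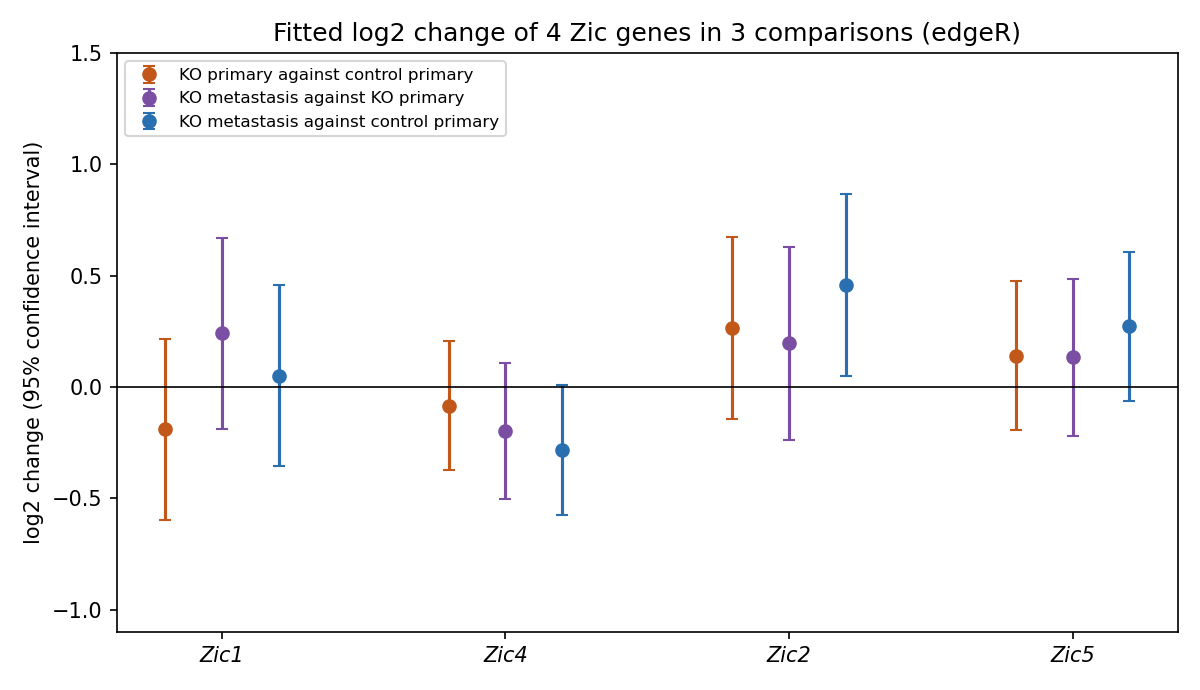
Fitted log2 change (vertical axis) of the 4 Zic genes in the 3 comparisons from edgeR, with bars for the 95% confidence interval. The Zic2 interval of KO metastasis against control primary (0.05 to 0.87) is the 1 of 12 that lies on one side of 0, and no gene passed the adjusted threshold.

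For Zic1, a factor of granule cell precursors, control primary libraries 3 to 7 held 198, 202, 258, 219 and 299.7 CPM. The KO primary values for replicates 3, 4, 6 and 7 were 212, 222, 194 and 198 CPM. KO metastasis 3, 4, 6 and 7 held 364, 216, 198 and 198 CPM. One metastasis was thus the highest of all 13 libraries, and the other 3 metastases lay among the KO primary values. The log2 change of KO primary over control primary was -0.19 (SE 0.19, edgeR adjusted p = 0.836). For KO metastasis over KO primary it was 0.24 (SE 0.20, adjusted p = 1.00 as rounded) and over control primary 0.05 (SE 0.19, adjusted p = 0.978). Without KO metastasis 3 these values were 0.02 and -0.21, so the sign of the last one rests on that library. KO metastasis 3 is also the library with 2.06% mitochondrial counts. Its part in the Zic1 level was not tested.

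Zic4, the partner of Zic1 on chromosome 9, had control levels of 249, 364, 282, 337 and 397 CPM (replicates 3 to 7). The KO primary levels of replicates 3, 4, 6 and 7 were 293, 308, 322 and 306 CPM. The metastasis levels of the same numbers were 241, 272, 263 and 294 CPM. The 3 highest values were all controls, yet control primary 3 was lower than 3 of the metastases. The log2 change was -0.08 (SE 0.14, edgeR adjusted p = 0.938) for KO primary over control primary. It was -0.20 (SE 0.14) for KO metastasis over KO primary and -0.28 (SE 0.14, adjusted p = 0.373) for KO metastasis over control primary.

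Zic2 was the least abundant of the 4 by count and per kilobase. Control primary 3 to 7 had 21.6, 20.6, 23.3, 24.5 and 40.5 CPM. The KO primary libraries 3, 4, 6 and 7 had 31.3, 34.1, 28.5 and 31.4 CPM, and KO metastasis 3, 4, 6 and 7 had 37.9, 36.8, 29.4 and 39.4 CPM. Control primaries 3 to 6 were below all 8 knockout libraries, and control primary 7 was above all of them. The log2 change was 0.26 (SE 0.19, edgeR adjusted p = 0.670) for KO primary and 0.46 (SE 0.19, adjusted p = 0.275) for KO metastasis over control primary. For KO metastasis over KO primary it was 0.20 (SE 0.20). Without control primary 7 the first was 0.46 (edgeR adjusted p = 0.163) and the second 0.69 (adjusted p = 0.0291), which passes the threshold. No other single library, when left out, gave a Zic gene a call. Without control primary 5, 6 and 7, which had Xist counts, the log2 changes of Zic2 were 0.63 and 0.86 (unadjusted p = 0.0137 and 0.00215, edgeR adjusted p = 0.393 and 0.170). Control primary 7 had the highest Zic1, Zic4, Zic2 and Zic5 level of the 5 controls.

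Zic5, divergent from Zic2 on chromosome 14, had control levels of 175, 267, 188, 263 and 281 CPM (replicates 3 to 7). KO primary replicates 3, 4, 6 and 7 held 257, 254, 266 and 259 CPM. Metastases of the same numbers held 239, 334, 260.0 and 302 CPM. The controls fell into 2 low and 3 higher values, and the KO primary libraries lay between 254 and 266 CPM. The coefficient of variation was 20.9% in control primary, 2.01% in KO primary and 14.96% in KO metastasis libraries. For Zic1, Zic4 and Zic2 it was also lowest in KO primary libraries, at 6.19%, 3.81% and 7.35%, against 18.3%, 18.5% and 31.3% in control primary libraries. The difference in spread was not tested. The log2 change of Zic5 was 0.14 (SE 0.16, edgeR adjusted p = 0.868), 0.13 (SE 0.16) and 0.27 (SE 0.16, adjusted p = 0.496) in the 3 comparisons in the same order.

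Over all 13 libraries the SD of log2 CPM was 0.28 for Zic1, 0.21 for Zic4, 0.33 for Zic2 and 0.25 for Zic5. Genes within 2-fold of the same level had a median SD of 0.29 (Zic1, Zic4 and Zic5) and 0.32 (Zic2). In this description 22.6% of such genes varied less than Zic4, 35.2% less than Zic5, 44.5% less than Zic1 and 52.9% less than Zic2.

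Within a library, the ratio of the counts of a pair does not depend on the scaling. The Zic1 to Zic4 ratio was 0.797, 0.556, 0.915, 0.649 and 0.755 in control primary 3 to 7. It was 0.723, 0.721, 0.603 and 0.648 in KO primary 3, 4, 6 and 7 and 1.51, 0.792, 0.752 and 0.673 in KO metastasis 3, 4, 6 and 7. Zic1 counts exceeded Zic4 counts only in KO metastasis 3, among these 13 libraries. The Zic2 to Zic5 ratio lay between 0.0772 and 0.144 in control primary, 0.107 and 0.134 in KO primary and 0.110 and 0.159 in KO metastasis libraries. No ratio differed between groups in 6 exact two-sided permutation tests over libraries. The smallest exact p was 0.114 (adjusted 0.619), for Zic1 to Zic4 in KO metastasis (geometric mean 0.882) against KO primary (0.672), where 4 against 4 libraries can reach 0.0286.

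**Figure D3:**
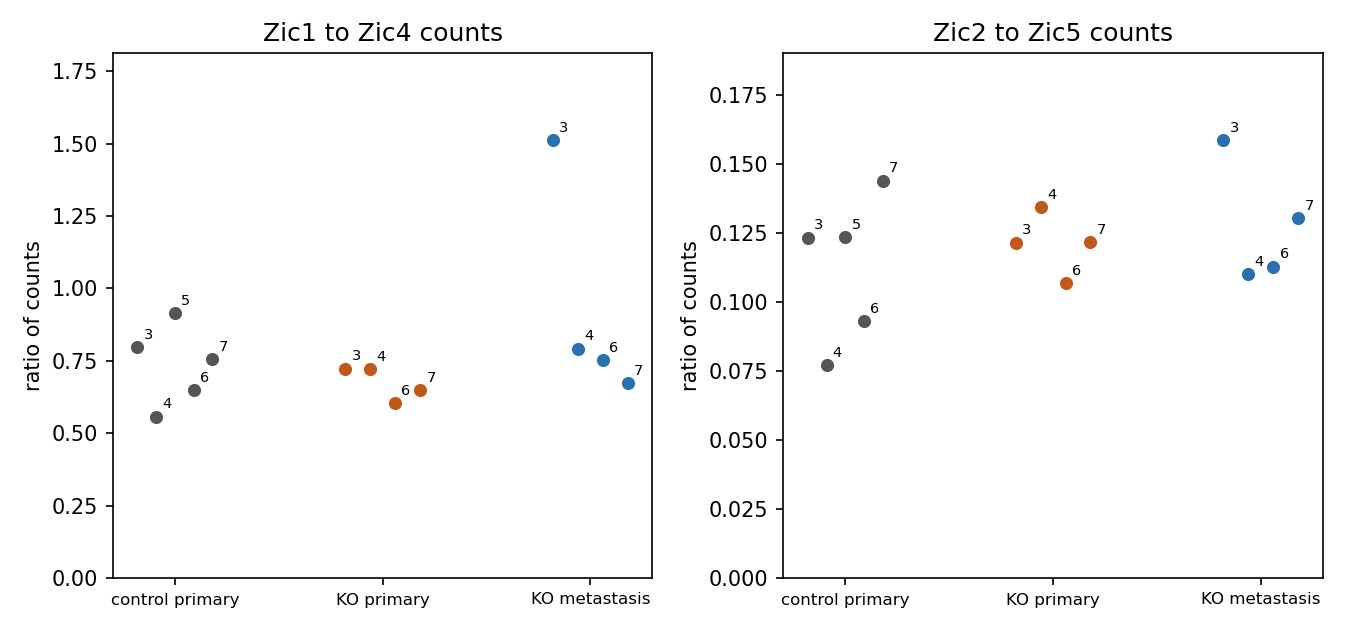
Ratio of counts of the 2 divergent pairs (vertical axes, from 0) in each library of the 3 groups, with replicate numbers beside the points. The Zic1 to Zic4 ratio is 1.51 in KO metastasis 3 and below 1 in the other 12 libraries, and the Zic2 to Zic5 ratio overlaps between all groups.

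The levels of the 4 genes were also related to each other across the 13 libraries (log2 CPM, 6 relations, permutation tests). The genes of a pair did not track each other on chromosome 9: Zic1 and Zic4 had Pearson r = -0.07 and Spearman rho = 0.04 (permutation p = 0.836 and 0.906). Zic2 and Zic5 had r = 0.61 and rho = 0.38 (permutation p = 0.0237 and 0.203, adjusted 0.142 and 0.594). Without the 2 libraries farthest from the Zic2 median r was 0.63, and within the 9 libraries of low receptor level it was 0.42. No relation passed an adjusted p of 0.05 in this form.

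With the group means taken out, Zic4 and Zic5, which lie on different chromosomes, varied together. Their deviations had r = 0.91 and rho = 0.91 over 13 libraries (permutation within groups, p = 0.00171 and 0.00422, adjusted over 6 relations 0.0103 and 0.0253). Without control primary 3 and 7, the 2 farthest libraries, r was 0.86, and within the 9 libraries of low receptor level it was 0.88. The 4 high-receptor libraries are too few for a value of their own. Within control primary libraries alone r was 0.97, and no r was taken within either KO group alone. The Zic4 deviations ran from -0.37 to 0.31 in control primary libraries. They ran from -0.067 to 0.067 in KO primary and -0.15 to 0.14 in KO metastasis libraries. The pooled r thus rests largely on the controls. Log2 CPM depends on the scaling, and control primary 3 and 5, the lowest controls for both genes, had the highest TMM factors of the controls (1.13 and 1.06). The part of the scaling in this relation was not tested. As levels, with group means left in, r was 0.38 (permutation p = 0.198, adjusted 0.396), with group means of 326 (control primary) and 268 CPM (KO metastasis) for Zic4 and 235 and 284 CPM for Zic5. The form without group means was added after the pooled values were seen. Of 11172 other genes of at least 5 CPM, 4 followed Zic4 as closely or more so in this form, namely Tll1, Plcb4, Ccne1 and Mre11a, and the median r was 0.27. The other 5 relations had adjusted permutation p-values of 0.138 or more.

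**Figure D4:**
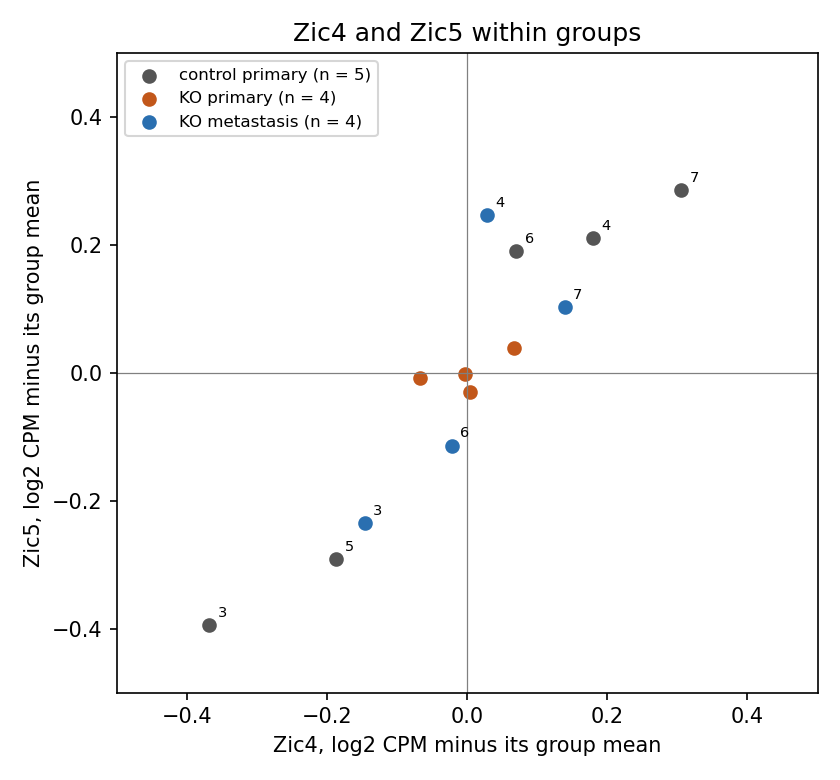
Log2 CPM of Zic4 (horizontal axis) and Zic5 (vertical axis) minus the mean of the group, 1 point a library, coloured by group, with replicate numbers for controls and metastases. The points lie along the diagonal (r = 0.91), with control primary 3 lowest and control primary 7 highest for both genes and the 4 KO primary libraries near 0.

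Genes that act beside the Zic factors were read from lists. The closest relatives, the GLI and GLIS zinc finger genes, had none of 6 members called in any of the 3 comparisons. The test called 2.93%, 0.00449% and 3.08% of all genes in these, so none of 6 is near the share of all genes. Gli1, an effector and target of Hedgehog signalling, stood at 173 ± 11.4 CPM in KO primary (SD, n = 4) and 117 ± 41.8 CPM in control primary libraries (n = 5, edgeR adjusted p = 0.270). Glis2 stood at 17.0 ± 2.35 and 25.3 ± 5.42 CPM (adjusted p = 0.268). Their median log2 change was 0.39 for KO primary over control primary, -0.08 for KO metastasis over KO primary and 0.26 for KO metastasis over control primary. The medians over all genes tested were -0.05, -0.0038 and -0.04.

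Among 14 Hedgehog receptors, transducers and targets, 2 rose and none fell in KO primary against control primary libraries, where 2.93% of all genes were called (median log2 change 0.45). Ccnd1, the gene of the cell cycle protein cyclin D1, was 0.69 higher on the log2 scale (SE 0.12, edgeR adjusted p = 0.00783, and 0.0524 with upper-quartile scaling). Gas1, a Hedgehog co-receptor, was 1.30 higher (SE 0.25, adjusted p = 0.0122, and above 0.05 without KO primary 3 or 4). Only Ccnd1 of these 14 was called in KO metastasis against control primary libraries (3.08% of all genes), and not without KO metastasis 3 (adjusted p = 0.0517).

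In the list of 15 other granule lineage transcription factors, 2 rose and 5 fell in KO primary libraries, and 8 were not called, beside 2.93% of all genes called (median log2 change -0.08). Those with the smallest p were factors of granule neuron differentiation. Neurod1 fell by 1.81 on the log2 scale (SE 0.28, edgeR adjusted p = 0.00286), Neurod2 by 4.41 (SE 0.79) and Nhlh2 by 0.92 (SE 0.17). These 3 calls held whichever library was left out. The 2 factors that rose were Atoh1 (log2 change 0.97, SE 0.20, edgeR adjusted p = 0.0199) and Nfia (0.72, SE 0.15, adjusted p = 0.0184). Each was above 0.05 in 4 of 9 fits without 1 library. Uncx, a homeobox gene, fell by 0.99 (SE 0.20, adjusted p = 0.0157, and up to 0.0806 without 1 of 3 libraries, control primary 4, KO primary 4 or KO primary 6). In KO metastasis against control primary libraries, where 3.08% of all genes were called, 3 of the 15 rose and 3 fell. Neurod2 fell by 5.15 on the log2 scale (SE 0.83, edgeR adjusted p = 0.00405) and Neurod1 by 1.67 (SE 0.27, adjusted p = 0.00446). Both calls held whichever library was left out. Barhl1, a homeobox gene of granule cell precursors, was 0.87 higher on the log2 scale there (SE 0.16, adjusted p = 0.0106), and Nfia, of the NFI family, 0.77 higher (SE 0.15, adjusted p = 0.0124, 0.0557 without KO metastasis 3). All 4 Zic genes had log2 changes between -0.19 and 0.26 in the first comparison. The 7 called factors had larger ones, but they were picked by the test, which favours large changes. Of the 8 factors not called, Pax6, Meis1, Nfib, Etv1 and Insm1 lay within the Zic range, and Barhl1, Meis2 and Nfix outside it. That the Zic genes differ from this list was not tested.

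**Figure D5:**
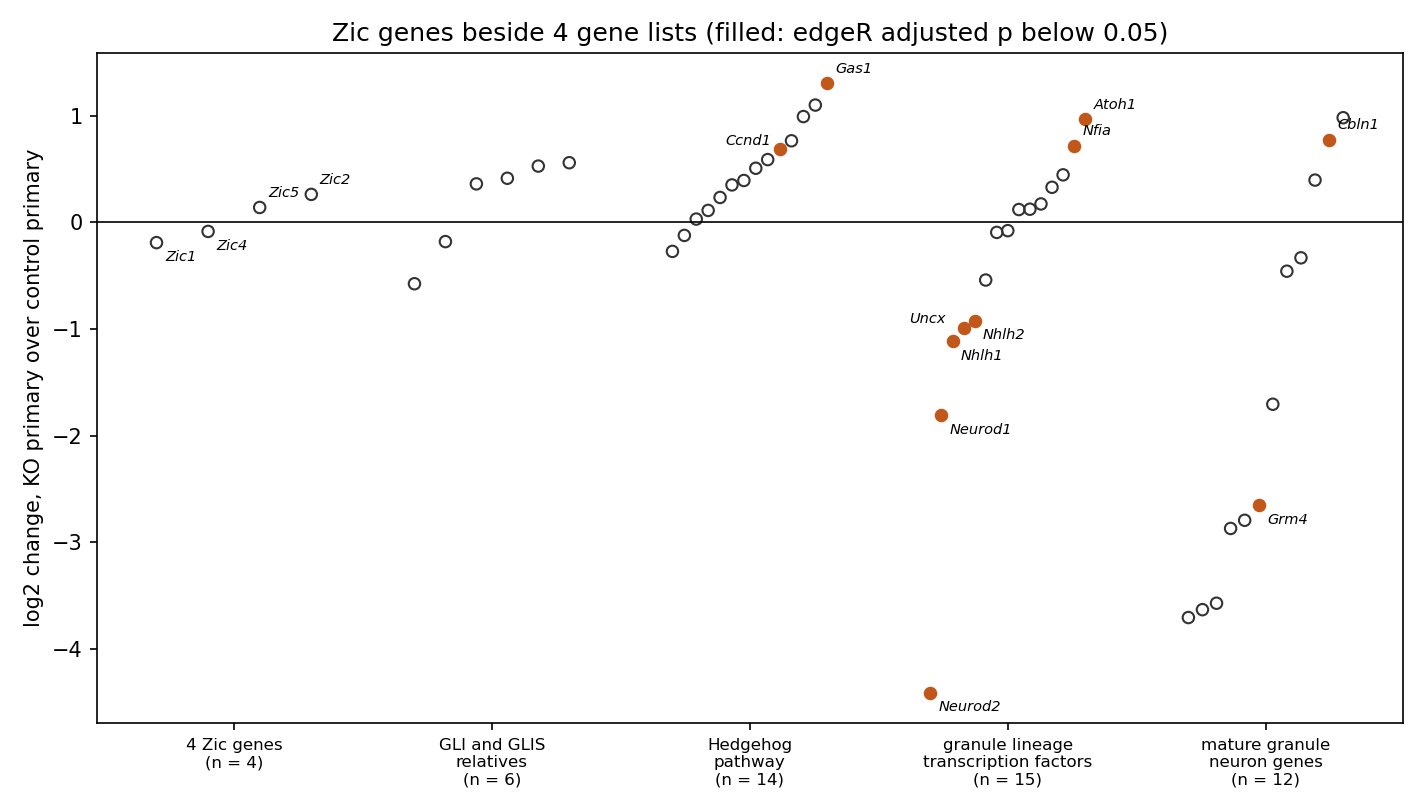
Fitted log2 change of KO primary over control primary (vertical axis) for the 4 Zic genes and the measured members of 4 gene lists, ordered within each list by value. Filled points passed an edgeR adjusted p below 0.05 and are named, and the Zic genes, all open, lie between -0.19 and 0.26.

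Of 12 genes of mature granule neurons, 1 was higher and 1 lower in KO primary libraries, and 1 was higher and 4 lower in KO metastasis than in control primary libraries (median log2 change -2.18 and -2.75). Of all genes, 2.93% and 3.08% were called in these comparisons. Gabra6 (7.73 ± 11.4 CPM), Gabrd (2.17 ± 2.76), Cbln3 (13.5 ± 15.2) and Slc17a7 (8.13 ± 9.84) had an SD above the mean in control primary libraries. Rbfox3 and Camk4, of higher control level (203 and 77.3 CPM), had log2 changes of 0.40 and -0.46 in KO primary libraries. In KO metastasis libraries these were 0.40 and -1.01. Cbln1, a synapse organiser, was the higher gene both times (0.78 and 1.12 on the log2 scale). The glutamate receptor gene Grm4 was lower both times (-2.65 and -3.22). The call of Cbln1 in KO primary libraries was lost in 5 of 9 fits without 1 library (control primary 4, 6 or 7, KO primary 4 or 6), and so was that of Grm4 (control primary 4 or 7, KO primary 3, 4 or 6). In KO metastasis libraries Grm4 was above an edgeR adjusted p of 0.05 without KO metastasis 3 or 4. Cbln3, a partner of Cbln1, and the cadherin gene Fat2 were the next lower genes there (edgeR adjusted p = 0.0235 and 0.0345), above 0.05 in 5 and 6 of 9 such fits. These included the fits without control primary 7, KO metastasis 4, 6 or 7 for both genes, KO metastasis 3 for Cbln3 and control primary 4 or 5 for Fat2. Of 12 dorsal neural tube and roof plate genes, which share the early domain of the Zic genes, 5 passed the low-count filter and none was called. Olig3 was at 148 ± 72.2 CPM in KO primary and 223 ± 82.4 CPM in control primary libraries and did not pass the test, with Pax3 at 8.03 ± 4.01 and 8.60 ± 8.59 CPM.

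The neighbourhood of the pairs was read from genes whose start lies within 200 kb of a Zic gene. Of the 17 other genes annotated there, 4 were matched by symbol to the count table, all on chromosome 14 and none called. With 2.93%, 0.00449% and 3.08% of all genes called in the 3 comparisons, none of 4 is near the share of all genes. Pcca, a mitochondrial carboxylase subunit starting 58889 bases from Zic2, had mean levels of 55.7 ± 7.94 (control primary), 88.2 ± 18.6 (KO primary) and 64.6 ± 13.6 CPM (KO metastasis, SD) (edgeR adjusted p = 0.0741 for the first comparison). Gm5089 and Gm10837 stayed between 1.90 and 8.02 CPM in all 13 libraries, and Gm25464 at 0.762 CPM or below. The antisense transcript 2610035F20Rik, which starts 236 bases from Zic2, was not matched and is not analysed here.

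For each Zic gene, the 5 genes of most similar pattern over the 13 libraries were taken from 10374 named genes of at least 5 CPM, by Pearson r of log2 CPM. As the top of a ranking these values are descriptions. Zic1 was followed by Phf14, Chd4, a remodeller of the NuRD complex, Bod1l, Zbtb7a and Ctif (r = 0.87 to 0.91), but by rank Phf14 gave rho = 0.40, Ctif 0.41 and Bod1l 0.57. Zic4 was followed by Tll1, a metalloprotease, Atp6v1b2, a proton pump subunit, Ptpdc1, Slc35a3 and Plpp5 (r = 0.89 to 0.91). Zic2 was followed by St8sia2, which makes polysialic acid on neural cells, Mpp6, Pcgf5, a Polycomb subunit, Iws1 and Nrn1 (r = 0.84 to 0.93). Zic5 was followed by Ncapg, a condensin subunit, B3gnt5, Coa5, Gsg2, a mitotic histone kinase, and Dhx40 (r = 0.89 to 0.94). By rank, Ncapg gave rho = 0.83, Gsg2 0.71, Coa5 0.66, B3gnt5 0.63 and Dhx40 0.55. No gene was on 2 of these lists. The number of genes with r above 0.8 was 28 for Zic1, 123 for Zic4, 15 for Zic2 and 148 for Zic5.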

How the data were processed

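Reads of 13 libraries were counted per gene by the submitters, and the deposited table holds raw whole-number counts. The submitters' processing notes name STAR 2.4, HTSeq 0.6.1, DESeq2 and mm10, without saying which step each served. Strand setting and annotation: not given in the sources used here. The 4 genes the selection lists were analysed, and other genes of the family are not analysed here. Members, gene lists and tests were chosen with earlier results of these data known.

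Low genes were removed by filterByExpr with a least count of 10 and a least total of 15. The test was that of edgeR 4.0.16 in R 4.3.3 with TMM scaling (quasi-likelihood, 13 libraries in 1 fit, 1 mean a group). P-values were adjusted by Benjamini-Hochberg over 22265 genes, with a threshold of 0.05. Standard errors come from the log2 change and its F value. Levels are TMM-scaled CPM, and log2 CPM used a prior count of 0.5. Ratios were compared by exact permutation and relations by 1e+05 permutations. The fit was tested on simulated data. Genes named from a list were the called members (at most 4, by smallest p) or else at most 2. More were named from the granule lineage list. Genes of like pattern were the 5 with the highest r and a mean of at least 5 CPM, leaving out predicted genes. Alternatives were DESeq2 1.42.0, limma 3.58.1 (voom with quality weights), upper-quartile scaling, no filter, 2-group fits, a replicate block and fits without libraries.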

Additional observations from a re-analysis of the deposited data

Results flagged for a closer look

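In each group of 4 or 5 libraries, the highest and the lowest level of each Zic gene and of each pair ratio were compared with the rest of the group. Of 18 groups so examined, 2 held a library that stood apart, by Dixon's gap-to-range ratio at its 95% limit, where chance alone gives about 1 in 20. Zic1 in KO metastasis 3 was at 364 CPM, with the nearest metastasis at 216 CPM (gap over range 0.892). Zic2 in control primary 7 was at 40.5 CPM, with the nearest control at 24.5 CPM (gap over range 0.803).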

How the results depend on the processing

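Genes called in KO primary against control primary, KO metastasis against KO primary and KO metastasis against control primary numbered 653, 1 and 685. With DESeq2 they were 1648, 33 and 1671, with limma voom 3267, 2 and 3822, and without the libraries of high receptor level 1427, 5 and 1274. Without the controls with Xist counts the counts against control primary were 138 and 100. The second was 2 with no filter, 0 with only the 2 groups compared and 0 with the replicate block, which gave 672 and 639 for the others and called no Zic gene. That block joined equal numbers over all 3 groups, controls included, so it was not a paired test of the KO groups alone. Same-numbered KO primaries and metastases had correlations of deviations of 0.0873 to 0.604, not above 0.1 in every pair, so the numbers were taken as names. As a hint from the data, 2 of 4 metastases correlated best with their own number. Leaving out 1 library gave 277 to 1032, 0 to 1 and 369 to 1199. The first count moved by over 1.5 times without control primary 3, 4 or 7 or KO primary 3, 4 or 6. The count for KO metastasis against control primary did so without control primary 3, 4, 6 or 7 or KO metastasis 3, 4 or 6, and the count between the KO groups was 0 without any 1 KO library other than KO metastasis 3. Of the Zic results, Zic2 in KO metastasis against control primary ran from 0.40 to 0.69 on the log2 scale without 1 library and passed without control primary 7. Zic1 changed sign with limma voom (-0.015 over KO primary, -0.18 over control primary), and without 1 library its change over control primary ran from -0.21 to 0.18. Without the controls with Xist counts, KO primary over control primary was 0.10 for Zic1, 0.036 for Zic4, 0.63 for Zic2, 0.26 for Zic5 and 0.012 for the log2 Zic1 to Zic4 ratio, and KO metastasis over control primary was 0.37 for Zic1, -0.13 for Zic4, 0.86 for Zic2 and 0.42 for Zic5, none called. Without 1 library, KO primary over control primary ran from -0.25 to -0.10 for Zic1 (nearest 0 without control primary 7), -0.16 (control primary 3) to -0.02 (control primary 7) for Zic4, 0.18 to 0.46 (control primary 7) for Zic2 and 0.05 (control primary 3 or 5) to 0.19 for Zic5. KO metastasis over KO primary ran from 0.02 (KO metastasis 3) to 0.37 (KO metastasis 6) for Zic1, -0.25 to -0.11 (KO metastasis 3) for Zic4, 0.14 to 0.32 (KO metastasis 6) for Zic2 and 0.07 (KO metastasis 4) to 0.25 (KO metastasis 3) for Zic5. The log2 Zic2 to Zic5 ratio of KO metastasis over KO primary ran from -0.040 (without KO metastasis 3) to 0.14 without 1 library. The Zic4 level was 77.6 CPM per kb with its longest transcript and 29.2 with all exons, by construction of the length. The cause of the other shifts was not tested. Zic counts of 569 and more in every library leave spread between libraries, not counting, as the larger error.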
